A study of Mus musculus with 3 samples.

Results

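Interferon-stimulated effector genes encode the proteins that carry out the antiviral program of a cell, and their RNA was described here in 5 cell classes of the mouse fetal brain. The members were a list of 36 gene symbols, of which 35 were matched among the 27998 genes of the tables; Mx2 was not analysed here. The rule names the symbols and uses no level of theirs. Cells were gated on raw counts of unique molecular identifiers (UMIs, 1 per captured RNA molecule). Microglia had P2ry12 and no Mrc1, border macrophages had Mrc1 and Pf4, and monocytes had Ccr2 and Ly6c2. Neutrophils had at least 20 UMIs of both S100a8 and S100a9, and choroid plexus cells had at least 5% of their UMIs from Ttr.

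Single-cell libraries, which read the 3′ end of transcripts in droplets, were made from CD11b+ myeloid cells of fetal brain at E18.5, shortly before birth, enriched over a Percoll gradient and with magnetic beads. There were 3 libraries with 1 per group: Ncr1-cre with saline (the saline library), Ncr1-cre with poly(I:C) (the poly(I:C) library), and Gzmb-cko with poly(I:C) (the Gzmb-cko library), whose genotype was Ncr1-cre;gzmbf/f. All groups carried Ncr1-cre, which drives recombination in natural killer and related innate lymphoid cells rather than in the myeloid cells measured here. Poly(I:C), a synthetic analogue of viral double-stranded RNA, induces interferon. The gene deleted in the Gzmb-cko group, Gzmb, codes for granzyme B, which cytotoxic cells release to kill their targets. The dose and day of poly(I:C), the number of fetuses per library and whether the genotype is that of dam or fetus could not be read from the labels used here. No Gzmb-cko library with saline was analysed here, so a genotype difference that is present without poly(I:C) cannot be told apart from one that needs it. Values below are in the order saline, poly(I:C) and Gzmb-cko.

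Type I interferons bind the receptor made of Ifnar1 and Ifnar2, and the kinases attached to it activate transcription factors that join Irf9 and bind a DNA element called the interferon-stimulated response element (ISRE). Interferon gamma acts through Ifngr1 and Ifngr2, and its signal reaches genes that carry the gamma-activated site (GAS). Macrophages are known to keep a tonic level of this program without infection, and single cells can differ widely in how far they engage it. Because each transcript is counted by its 3′ end, levels are given as counts per 1e6 UMIs of the gate (CPM) and do not scale with transcript length.

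The libraries held 13820, 14887 and 15306 barcodes with a median of 5321, 4765 and 5800.5 UMIs, and 12148, 10759 and 13447 cells were kept with at least 500 genes and at most 10% mitochondrial UMIs. The lowest total of a barcode was 3133 UMIs in the saline library and 500 in both others. Pairs of libraries shared 63 to 71 barcodes. Gzmb, the deleted gene, had 61, 127 and 2 UMIs over all barcodes, and these lay in 4, 6 and 1 barcodes, so that few cells stand behind this check of the labels. Ncr1 had 8, 6 and 0 UMIs in 3, 3 and 0 barcodes. Because no barcode of the Gzmb-cko library had Ncr1, its low Gzmb count cannot tell deletion from a lack of the cells that express Gzmb. With 1 library per group no treatment or genotype difference could be tested. The 95% intervals cover counting error only: they are exact Poisson intervals for levels, Clopper-Pearson intervals for shares, and conditional binomial intervals for ratios. Those for levels and ratios take each UMI as an independent draw and leave out variation between cells. They are thus too narrow for members whose RNA lay in few cells.

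The microglia gate held 5452, 4519 and 5399 cells, and the microglial genes Tmem119 and Sall1, which the gate does not use, were present at 244.9, 328.0 and 290.4 CPM and at 142.4, 174.2 and 167.2 CPM. The gates overlapped: 8.20, 5.84 and 5.30% of microglia-gate cells and 41.9, 30.2 and 32.3% of monocyte-gate cells also met another gate. Hemoglobin genes made up 9.75, 5.45 and 2.53% of the UMIs in the microglia gate, and S100a8 with S100a9 stood at 3940, 2189 and 1302 CPM there. These shares and levels were highest in the saline library. Sums, counts and the main shares are therefore given also for single-gate cells, an alternative chosen after seeing the data, which meet 1 gate and have under 20% hemoglobin UMIs. In single-gate microglia (4518, 4080 and 5004 cells) the hemoglobin share was 0.751, 0.267 and 0.109%. The 8 monocyte markers checked still summed to 1045, 960.9 and 875.6 CPM there, against 21670, 31510 and 29050 CPM in single-gate monocytes. A narrower set, also chosen after seeing the data and called marker-restricted microglia below, left out single-gate microglia with a UMI of Plac8, Ms4a4c, Ccr2 or Ly6c2, which mark monocytes. It held 3806, 3762 and 4534 cells. Ms4a4c and Ly6c2 are themselves known to respond to interferon, so this restriction also acts on genes close to the members.

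Promoter sequences were examined because the members are defined by a shared response. RefSeq (build GRCm38.p6) gave the 250 bases before the start of 28 of the 35 members. Usp18, Mx1, Oas2, Ifi204, Ifi27l2a, Rtp4 and Parp14 had no entry. The ISRE core, GAAA followed by any 2 bases and GAAA, searched on both strands, was found in 15 of 28 members (53.6%) and in 3.46% of 27025 genes. The GAS core, TTC followed by any 3 bases and GAA, also searched on both strands, was found in 4 of 28 members (14.3%), namely Ifit2, Oas1a, Gbp7 and Igtp, and in 8.13% of genes. The 2 cores can overlap each other and were counted separately. A match is a description of letters, not of a bound site. The sequences below are shown 5′ to 3′ on the strand of the gene with ISRE matches in capitals. They contrast members whose RNA in single-gate microglia lay mostly in cells with at least 4 other members (Isg15, Ifit1, Ifit3 and Rsad2) with members whose RNA lay mostly outside them (Irgm1 and Gbp7), and Slfn2 is an abundant member without a match.
Isg15 (chr4:156200819-156201068, minus strand): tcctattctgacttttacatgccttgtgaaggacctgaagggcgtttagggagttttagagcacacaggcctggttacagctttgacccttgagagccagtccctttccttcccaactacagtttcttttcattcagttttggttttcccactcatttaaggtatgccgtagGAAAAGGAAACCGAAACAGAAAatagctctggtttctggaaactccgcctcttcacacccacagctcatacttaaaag
Ifit1 (chr19:34640639-34640888, plus strand): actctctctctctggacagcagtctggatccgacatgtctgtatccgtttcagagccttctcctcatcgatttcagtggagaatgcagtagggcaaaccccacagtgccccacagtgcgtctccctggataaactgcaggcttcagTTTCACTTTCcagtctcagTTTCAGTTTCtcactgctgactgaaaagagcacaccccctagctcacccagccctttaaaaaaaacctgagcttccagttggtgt
Ifit3 (chr19:34583279-34583528, plus strand): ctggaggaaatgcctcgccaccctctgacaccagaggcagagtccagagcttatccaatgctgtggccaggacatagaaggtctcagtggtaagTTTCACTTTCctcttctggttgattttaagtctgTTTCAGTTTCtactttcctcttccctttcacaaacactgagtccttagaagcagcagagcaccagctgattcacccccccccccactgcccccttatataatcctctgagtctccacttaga
Rsad2 (chr12:26456453-26456702, minus strand): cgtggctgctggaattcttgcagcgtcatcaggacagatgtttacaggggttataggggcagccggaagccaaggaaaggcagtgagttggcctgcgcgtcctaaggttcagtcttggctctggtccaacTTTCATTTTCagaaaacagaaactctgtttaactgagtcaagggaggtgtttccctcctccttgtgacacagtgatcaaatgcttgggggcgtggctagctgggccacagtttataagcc
Irgm1 (chr11:48871421-48871670, minus strand): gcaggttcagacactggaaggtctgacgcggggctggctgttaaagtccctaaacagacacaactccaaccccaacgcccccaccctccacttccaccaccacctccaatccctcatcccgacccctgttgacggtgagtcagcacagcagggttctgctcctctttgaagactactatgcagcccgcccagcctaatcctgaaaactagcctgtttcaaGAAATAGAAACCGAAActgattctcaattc
Gbp7 (chr3:142530086-142530335, plus strand): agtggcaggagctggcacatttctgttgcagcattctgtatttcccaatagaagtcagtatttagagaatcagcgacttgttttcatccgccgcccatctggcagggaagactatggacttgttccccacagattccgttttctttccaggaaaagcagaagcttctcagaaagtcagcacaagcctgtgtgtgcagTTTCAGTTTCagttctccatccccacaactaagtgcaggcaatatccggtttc
Slfn2 (chr11:83064862-83065111, plus strand): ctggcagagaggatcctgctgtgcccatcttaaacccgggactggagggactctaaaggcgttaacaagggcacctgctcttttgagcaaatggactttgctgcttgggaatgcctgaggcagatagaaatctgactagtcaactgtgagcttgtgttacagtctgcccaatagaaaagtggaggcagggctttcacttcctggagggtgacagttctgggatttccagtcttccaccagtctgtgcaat

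In Isg15, 3 overlapping matches formed 1 unbroken block of capitals that ended 56 bases before the start, and in Irgm1 2 overlapping matches formed 1 block ending 14 bases before it. Ifit1 and Ifit3 each held 2 separate matches, written on the opposite strand as the complement of the core. Some families lay in clusters in the mm10 annotation, while members such as Isg15, Trim30a and Phf11d were each the one member on their chromosome. The 4 Ifit genes lay on chromosome 19 between 34550694 and 34650009, the 5 Slfn genes on chromosome 11 between 82951349 and 83190216, and Rsad2 and Cmpk2 side by side on chromosome 12. Near-identical ends limit 2 members: 70.0% of the 31-base words in the last 500 bases of Oas1a were shared with Oas1g, and 24.0% of those of Ifit3 with Ifit3b, so that their counts are uncertain.

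The first question was which cells carried member RNA. Monocytes held by far the most in all 3 libraries, border macrophages and neutrophils were intermediate, microglia were lower and choroid plexus cells lowest. Summed over the 35 members, monocytes stood at 4951, 6894 and 7373 CPM, which is 0.495, 0.689 and 0.737% of their UMIs. Border macrophages stood at 1317 (95% interval 1294 to 1341), 1393 (1363 to 1423) and 1546 (1529 to 1564) CPM. Neutrophils were below monocytes but above microglia, at 1416, 2563 and 2336 CPM. Microglia stood at 947.7 (937.1 to 958.3), 928.0 (916.6 to 939.6) and 821.5 (812.2 to 830.9) CPM, or 0.0948, 0.0928 and 0.0822% of their UMIs. Choroid plexus cells, which are epithelial and not CD11b+ myeloid cells, were at 440.6, 279.6 and 271.7 CPM. The order monocytes, border macrophages, microglia, choroid plexus was the same in each library, whereas neutrophils and border macrophages changed places: in the saline library neutrophils were above border macrophages in the stated gates and below them in single-gate cells (1040 against 1348 CPM).

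**Figure D1:**
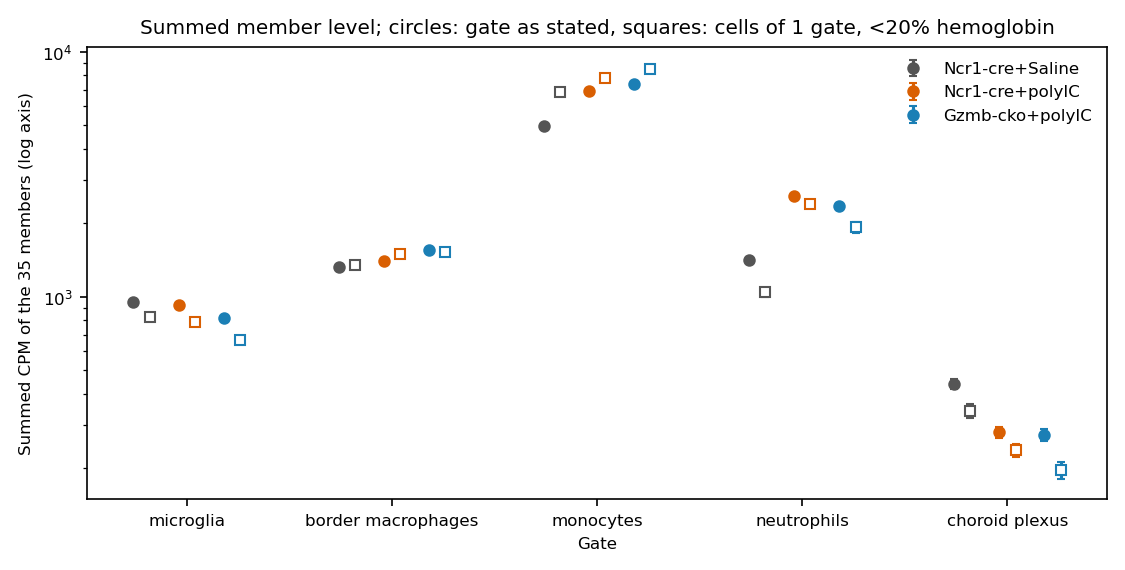
Summed level of the 35 members (CPM, log axis) in each of 5 gates and 3 libraries; circles are the gates as stated, squares are cells that meet 1 gate and hold under 20% hemoglobin UMIs, and bars are 95% Poisson intervals. Monocytes are highest at 4951 to 7373 CPM and choroid plexus cells lowest at 271.7 to 440.6 CPM.

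**Figure D2:**
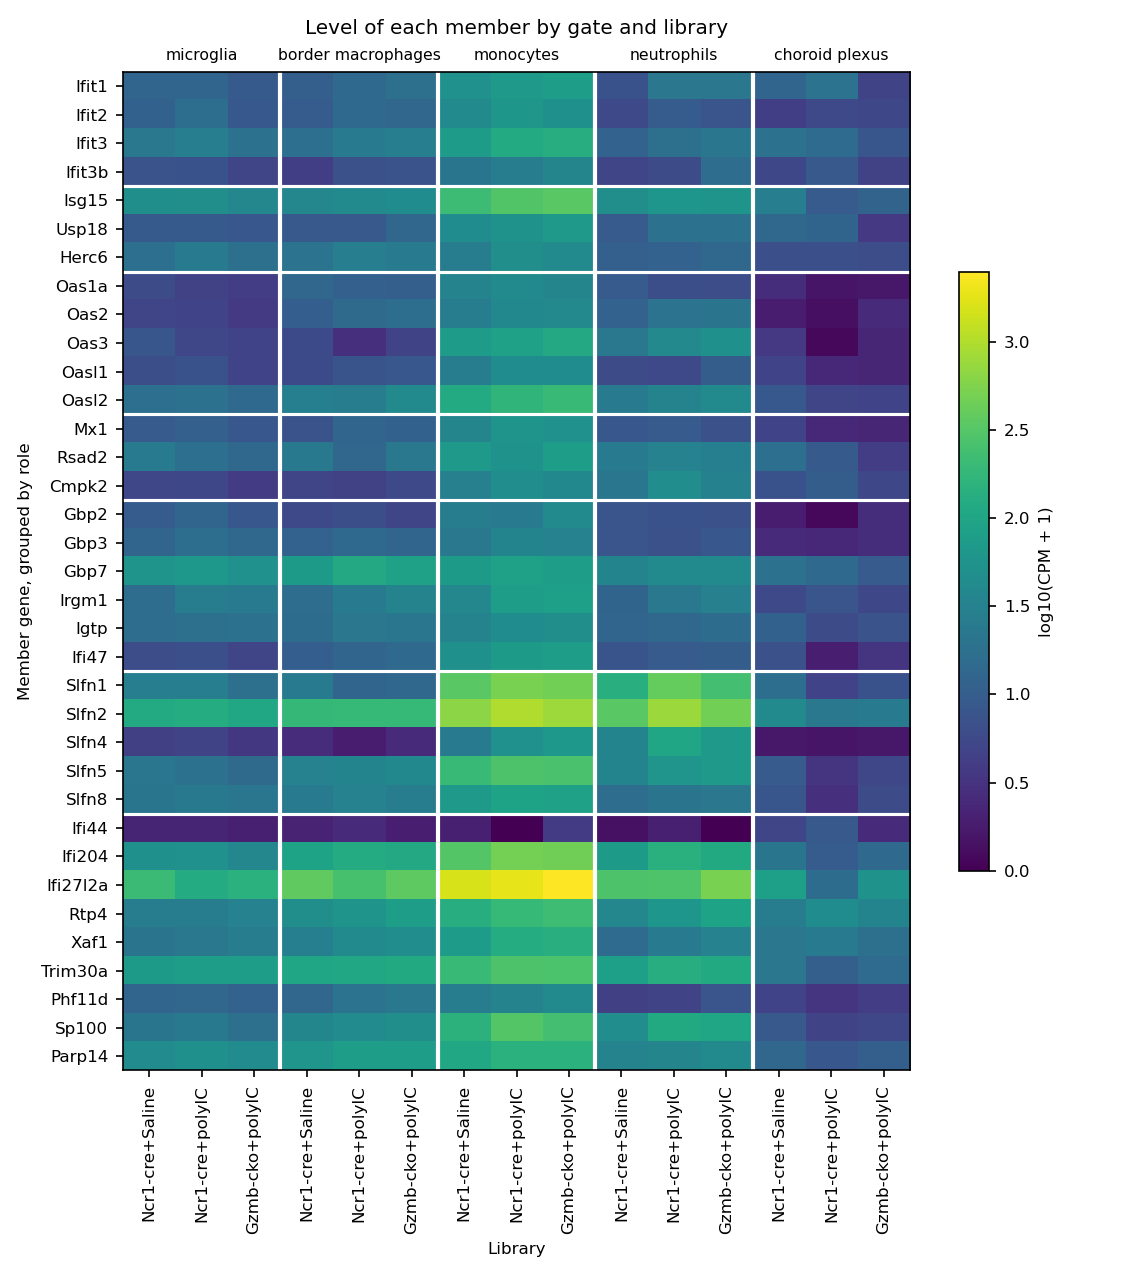
Level of each of the 35 members, as log10 of CPM plus 1, in 5 gates by 3 libraries. The monocyte columns are the brightest for nearly all members, and Ifi27l2a and Slfn2 are bright in every gate of myeloid cells.

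Among members, Ifi27l2a led in 3 of the 4 myeloid gates by the mean over libraries. It encodes a small interferon-inducible membrane protein and stood at a mean of 1973 CPM in monocytes, 324.6 CPM in border macrophages, 159.1 CPM in microglia and 50.3 CPM in choroid plexus cells. Slfn2, a Schlafen family member needed for quiescence of immune cells, was second in microglia (117.5 CPM), border macrophages (187.0 CPM) and monocytes (804.2 CPM) and first in neutrophils (527.8 CPM). In microglia their order differed between libraries: in the poly(I:C) library Slfn2 held 13.5% of member UMIs and Ifi27l2a 13.1%, and in single-gate microglia Slfn2 was above Ifi27l2a in both poly(I:C) libraries (12.9 against 10.3% and 14.2 against 13.5%). In neutrophils it was not stable either: Slfn2 held 30.0% of member UMIs and Ifi27l2a 11.4% in the poly(I:C) library, and 20.3 and 22.2% in the Gzmb-cko library. In microglia the next were Trim30a, an interferon-inducible regulator of inflammatory signalling, at 74.84 CPM, the guanylate-binding GTPase Gbp7 at 56.80 CPM, and the nuclear DNA-binding protein gene Ifi204 at 45.88 CPM. Monocytes differed in their next leaders, with Slfn1 at 444.3 CPM, Ifi204 at 417.2 CPM and Isg15, which encodes a ubiquitin-like modifier, at 283.7 CPM. In neutrophils Slfn1 was at a mean of 255.9 CPM and was above Ifi27l2a in the poly(I:C) library, with 15.1% of member UMIs. In the choroid plexus gate Rtp4, a receptor-transporting protein that also restrains viruses, was second by its mean of 34.52 CPM and Xaf1, an apoptosis-linked factor, was at 20.77 CPM. There the order changed with the library: Rtp4 was first in the poly(I:C) library with 15.9% of member UMIs, where Ifi27l2a held 5.36%.

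Set against microglia within the same library, 33 of 35 members (94.3%) were at least 1.5-fold higher in monocytes in each of the 3 libraries, where 9.47% of all 13509 genes tested were. The exceptions were Gbp7, at 1.255, 1.385 and 1.524-fold, and Ifi44, which had almost no UMIs in monocytes. The summed members were 5.225, 7.428 and 8.975-fold higher in monocytes than in microglia, and 8.284, 9.841 and 12.73-fold in single-gate cells. Border macrophages were higher for 9 of 35 members (25.7%), against 3.73% of all genes, and for 11 in single-gate cells, against 4.3%. These 9 included Oas1a and Oas2, synthases of the RNase L activator 2-5A, at 2.417, 2.676 and 3.135-fold and at 2.269, 3.772 and 5.76-fold. They also included Ifi204 at 1.865, 2.401 and 3.06-fold and Ifi27l2a at 1.751, 2.097 and 2.4-fold. Lower in border macrophages than in microglia were 2 members, where 2.48% of all genes were: Gbp2, at 0.5257, 0.4677 and 0.5506-fold, and Slfn4, at 0.4987, 0.2139 and 0.6332-fold. In single-gate cells 1 member was lower. Slfn4 had few UMIs, with a mean of 1.387 CPM in border macrophages. Its mean was 3.299 CPM in the microglia gate but 0.9977 CPM in single-gate microglia.

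Neutrophils were higher than microglia for 8 of 35 members (22.9%), against 6.97% of all genes, and lower for 2 (Gbp3 and Phf11d), against 30.8%. In single-gate cells 7 were higher, against 6.92% of all genes, and 10 lower, against 40.9%. Slfn4, a Schlafen gene of myeloid cells, was 9.72, 25.55 and 26.24-fold higher and Slfn1 5.11, 14.07 and 14.18-fold higher. Cmpk2, a mitochondrial nucleotide kinase, was 4.743, 10.43 and 10.25-fold higher. In choroid plexus cells 24 of 35 members (68.6%) were at least 1.5-fold lower than in microglia in each library, where 35.6% of all genes were, and in single-gate cells 21 were, where 40.4% of all genes were. Ifi44, an interferon-induced cytoplasmic protein gene, was instead 3.419, 6.474 and 1.576-fold higher there, at 4.196, 7.946 and 1.575 CPM.

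The share of cells with at least 1 member UMI followed depth and was compared after thinning every cell to 2000 UMIs. Thinning left out 0, 445 and 169 microglia with fewer UMIs. After thinning, 58.53% (57.21 to 59.84), 55.33% (53.78 to 56.86) and 57.40% (56.05 to 58.74) of microglia had a member UMI, and before it 81.95, 77.41 and 83.50%. In single-gate microglia the thinned share was 58.37, 54.73 and 57.02%. In monocytes these shares were 97.63, 98.62 and 99.57%, in border macrophages 74.67, 76.82 and 80.17%, in neutrophils 78.27, 91.78 and 88.83%, and in choroid plexus cells 33.77, 27.37 and 22.82%. Cells with at least 20% hemoglobin UMIs outside the gates, at a median of 9118.5, 14133 and 14379 UMIs, gave 47.10, 32.18 and 39.53% after thinning. This class was chosen as a background for free RNA, but it is not a clean one. Rsad2 stood above its microglia-gate level there in each library, so these shares need not come from free RNA alone. The leading members of the class were Ifi27l2a and Slfn2 in the saline library, where Rsad2 and Isg15 were close to Slfn2. In both others Rsad2 and Isg15 led. A single member was seen in few microglia: Slfn2 in 17.5, 16.9 and 16.2% of thinned cells, Isg15 in 5.01, 4.39 and 3.73%, and Ifit3 in 2.15, 2.36 and 1.64%.

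Member RNA in microglia was unevenly spread. The median thinned microglia-gate cell held 1 member, while single cells held up to 30, 25 and 22. Cells with 5 or more members, a range and not a cell type, made up 320 of 5452 (5.869%, 5.26 to 6.526), 218 of 4074 (5.351%, 4.68 to 6.087) and 215 of 5230 (4.111%, 3.589 to 4.685). They held 46.0, 52.4 and 41.1% of all member UMIs of the gate. Of these cells 35.6, 32.1 and 38.6% also met the monocyte gate, against 1.6, 0.674 and 0.299% of the remaining cells. In single-gate microglia the share was 3.984% (3.433 to 4.596), 3.667% (3.081 to 4.329) and 2.511% (2.09 to 2.991), lowest in the Gzmb-cko library. In marker-restricted microglia it was 1.471% (1.113 to 1.906), 1.701% (1.291 to 2.198) and 1.411% (1.084 to 1.806), with intervals that overlapped between all libraries. The lower share of the Gzmb-cko library was thus not seen once cells with a UMI of the 4 monocyte genes were left out. This restriction kept 56, 57 and 62 of the 180, 134 and 122 single-gate cells with 5 or more members. It thus removed such cells unevenly, partly by genes that respond to interferon. It acts on the share being compared, so no conclusion on the difference between libraries is drawn from it. By the same count 10.31, 14.41 and 17.71% of border macrophages and 63.51, 68.70 and 82.51% of monocytes held 5 or more members.

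**Figure D3:**
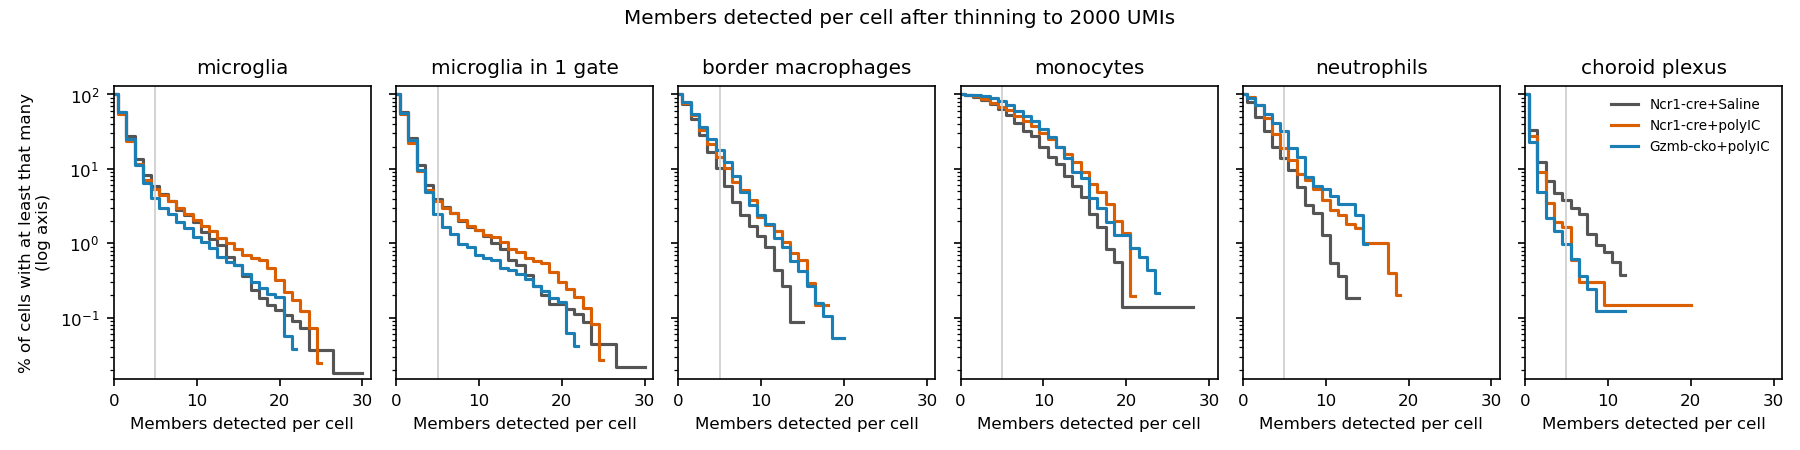
Percent of cells (log axis) with at least the given number of distinct members after thinning to 2000 UMIs, in 6 panels of cell gates, with 1 line per library; the vertical line marks 5 members. In microglia 4.111 to 5.869% of cells reach 5 members, in monocytes 63.51 to 82.51%.

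Within single-gate microglia the cells with 5 or more members carried more monocyte marker RNA than the rest. The 8 monocyte markers summed to 4799, 5625 and 4139 CPM in them and to 885.1, 774.0 and 794.2 CPM in the rest. Plac8 alone was 20.75, 41.23 and 61.85-fold higher. The 8 microglia markers were present in both, at 8265, 9046 and 9865 CPM and at 10990, 12590 and 11570 CPM. Tmem119 or Sall1 was detected in 65.0, 78.4 and 73.0% of the cells with 5 or more members and in 83.4, 86.2 and 86.0% of the rest. The part of monocyte RNA in the member counts of these cells was not tested.

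Members differed in how far their RNA lay in cells that held at least 4 other members. For the IFIT genes, whose proteins bind viral RNA, and for Rsad2, the antiviral enzyme viperin, most RNA lay there. In single-gate microglia 91.9, 92.0 and 87.9% of the thinned Ifit3 UMIs, 94.2, 98.7 and 92.1% of those of Rsad2 and 66.7, 81.8 and 65.2% of those of Isg15 were in such cells. Ifit3 was detected in 24.3, 32.4 and 20.3% of the cells with 4 or more other members, and in 0.353, 0.433 and 0.367% of the rest. The other IFIT genes were at 84.0, 84.9 and 82.4% (Ifit1), 77.9, 91.2 and 67.6% (Ifit2) and 96.5, 97.5 and 88.4% (Ifit3b). For Irgm1 the share was 27.7, 29.0 and 10.5%, for Gbp7 10.7, 11.4 and 8.64%, for Trim30a 20.2, 23.9 and 12.5%, and for Slfn2 22.7, 23.7 and 14.3%. IFIT genes and viperin thus had higher shares than these 4 members in every library. In marker-restricted microglia the shares were 85.1, 82.1 and 76.0% for Ifit3, 83.7, 87.5 and 94.0% for Rsad2, 5.15, 4.98 and 9.27% for Gbp7 and 8.63, 7.69 and 5.55% for Slfn2. Isg15 lay between them, at 52.7, 57.3 and 42.8%.

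**Figure D4:**
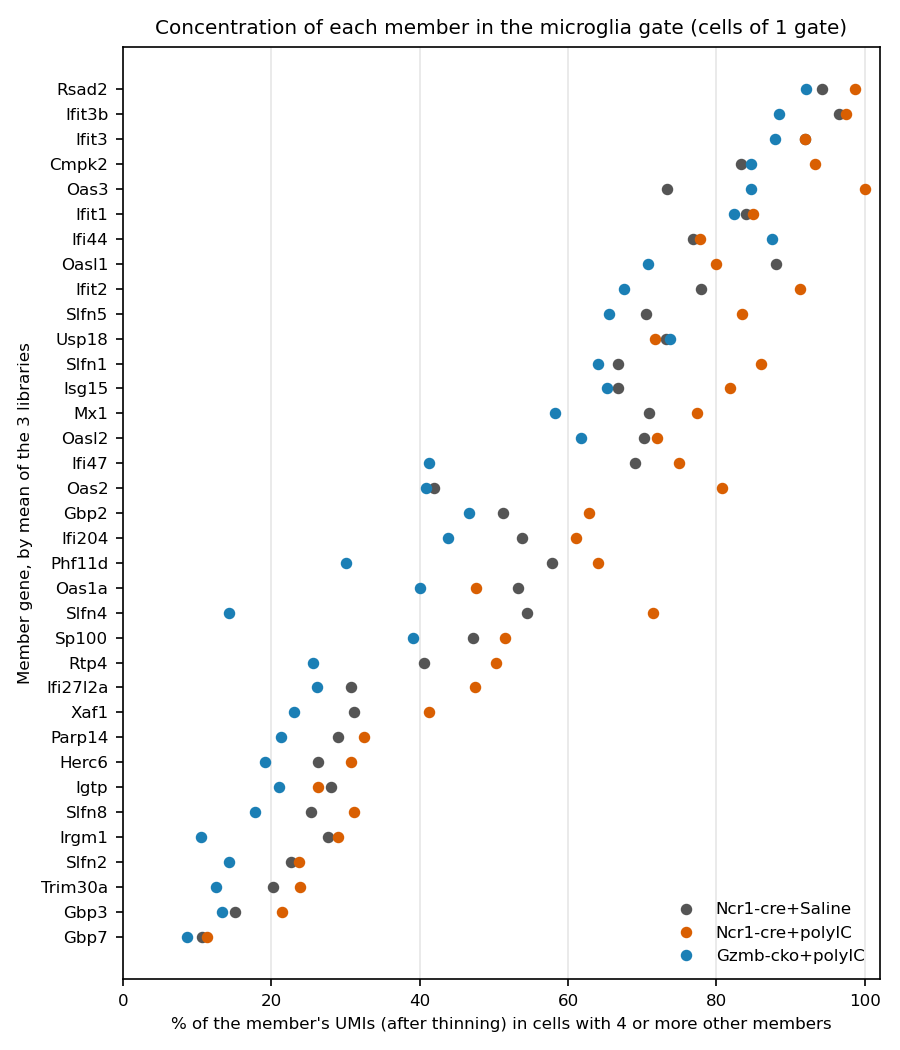
Percent of each member's thinned UMIs that lay in cells with at least 4 other members, in single-gate microglia, with 1 point per library. Ifit3 lies at 87.9 to 92.0% and Rsad2 at 92.1 to 98.7%, and Gbp7 at 8.64 to 11.4%.

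A few of the other genes of the pathway, from a list of 47 genes, are given for the same cells, without a count over the list. Irf7, the factor that amplifies the response, was 26.09, 80.48 and 49.07-fold higher in single-gate microglia with 5 or more members than in the rest. The RNA sensors Ifih1 and Ddx58 were 9.181, 14.78 and 9.243-fold and 8.033, 9.495 and 7.764-fold higher. The receptor genes Ifnar1 and Ifngr1 were at 0.7137, 1.24 and 1.734-fold and at 0.861, 1.002 and 1.023-fold. Irf7 and both sensors were thus higher in these cells in each library, while Ifnar1 had no common direction. The cells were chosen by their count of members, so higher levels of genes with the same response are no independent result. They also carried more monocyte marker RNA, and its part in these ratios was not tested.

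The second question was whether members differed between the poly(I:C) and saline libraries. In microglia the summed level was nearly equal, 928.0 against 947.7 CPM, a ratio of 0.9793 (0.963 to 0.9958). Of 35 members tested, meaning at least 50 UMIs over both libraries, 24 were higher in the poly(I:C) library, or 68.6%, where 74.4% of all 12657 genes were. The median log2 ratio of the members (pseudocount 1 CPM) was 0.08 and that of all genes 0.17. Rescaling by trimmed mean of M values (TMM) shifted all log2 ratios by -0.18. Without the pseudocount the scaled medians were -0.10 for the members and 0.002 for all genes. The share of all genes that was higher was not counted with this scaling. With TMM scaling 11 of 35 members were higher (31.4%), none by 1.5-fold (3.97% of all genes), and 4 were lower by it (Ifi27l2a, Oas3, Rsad2 and Oas1a, against 4.91% of all genes). At least 1.5-fold higher were 3 members (8.57%, against 9.01% of all genes) and at least 1.5-fold lower were 2 (5.71%, against 2.69% of all genes). The higher count was near the share of all genes. In single-gate microglia 2 were higher (Irgm1 and Ifit2, against 7.11%) and 3 lower (Ifi27l2a, Oas3 and Oas1a, against 3.01%). In marker-restricted microglia 1 of 30 tested was higher (Irgm1, against 6.11%) and 3 were lower (Ifi27l2a, Oas1a and Oas2, against 2.96%).

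Irgm1, an immunity-related GTPase that acts at intracellular membranes, was the member with the largest positive ratio. It stood at 15.50, 26.07 and 24.26 CPM, so that both poly(I:C) libraries were above the saline library, with a poly(I:C) to saline ratio of 1.683 (1.498 to 1.890). The ratio was 1.622 in single-gate and 1.665 (1.432 to 1.939) in marker-restricted microglia. All 6 GTPase members were higher, with a median log2 ratio of 0.28, but 3 of the 6 were lower with TMM scaling. Ifit2 stood at 10.37, 15.88 and 7.743 CPM, a ratio of 1.531 (1.324 to 1.771) that was 1.288 in marker-restricted cells. Herc6, the mouse ligase that attaches Isg15 to proteins, stood at 16.60, 25.18 and 17.10 CPM, a ratio of 1.517 (1.353 to 1.701), and 1.367 in marker-restricted cells. For both genes the poly(I:C) library was above both others.

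Ifi27l2a was lower in the poly(I:C) library, at 207.8, 121.9 and 147.5 CPM, a ratio of 0.5866 (0.5625 to 0.6117). In single-gate microglia it was at 0.4843 and in marker-restricted microglia at 0.431 (0.3957 to 0.4691), so that the difference was larger in the narrower sets. It held 21.9% of the member UMIs of the saline library and 13.1% of those of the poly(I:C) library, and the summed ratio without it was 1.09. In hemoglobin-rich cells outside the gates Ifi27l2a held 20.7, 9.56 and 8.99% of member UMIs, also highest with saline. The part of free RNA in its microglia ratio was not tested. Oas3, the long 2-5A synthase, stood at 7.119, 4.240 and 3.858 CPM, a ratio of 0.5956 (0.4717 to 0.7484), but had only 1 and 12 UMIs in the poly(I:C) and saline libraries in marker-restricted cells. Rsad2 did not pass the fold, at 24.15, 16.48 and 13.04 CPM (ratio 0.6823, 0.6059 to 0.7675). Isg15 was nearly equal in the saline and poly(I:C) libraries, at 47.90, 47.42 and 36.27 CPM (ratio 0.99, 0.9187 to 1.067). Among the pathway genes Ifngr1, a receptor chain of interferon gamma, was at 520.6 CPM with poly(I:C) and 319.2 CPM with saline, a ratio of 1.631 (1.59 to 1.673). Of the 43 pathway genes tested, 34 were higher (79.1%), where 74.4% of all genes were.

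A last question was whether members differed between the Gzmb-cko and the Ncr1-cre libraries that both had poly(I:C). This comparison shares the Ncr1-cre poly(I:C) library with the preceding one, so that a low or high value in that library moves the 2 ratios in opposite directions. In microglia the summed members were lower in the Gzmb-cko library, with a ratio of 0.8852 (0.8704 to 0.9003). Of 35 members 30 were lower and 5 higher, where 37.8% of all 12574 genes were higher. The median log2 ratio was -0.32 for members and -0.07 for all genes, and TMM scaling raised both by 0.11, which left 29 of 35 members lower. Without the pseudocount the scaled medians were -0.25 for members and 0.033 for all genes. The share of all genes that was lower was not counted with this scaling. All 4 IFIT members were lower (median -0.54), as were all 5 OAS members (-0.32), all 5 Schlafen members (-0.33) and the 3 of the Isg15 group (-0.38), also with TMM scaling. At least 1.5-fold lower were 7 of 35 members, where 9.35% of all genes were, and none was higher, where 1.28% were. In single-gate microglia 12 were lower, where 8.64% of all genes were. With TMM scaling of the stated gate 1, Ifit2, was lower, where 7.51% of all genes were.

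These values depended on which cells entered. The marker restriction kept 57 of 134 single-gate cells with 5 or more members with Ncr1-cre and 62 of 122 with Gzmb-cko. It thus acts on the members being compared. In marker-restricted microglia the summed ratio was 1.019 (0.9944 to 1.044). Of 30 members tested in the marker-restricted set 13 were higher and 17 lower, with a median log2 ratio of -0.06 against -0.11 for all genes. There 5 were at least 1.5-fold lower (Ifit2, Ifit3, Ifit3b, Oasl1 and Ifi47, against 7.35% of all genes) and 4 higher (Rtp4, Xaf1, Rsad2 and Ifi27l2a, against 1.1% of all genes). The monocyte marker sum in the microglia gate was 1746, 1744 and 1452 CPM, and thus lowest in the Gzmb-cko library as well.

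The IFIT genes were lower in all 3 sets of cells, which are nested and so not independent. Few cells stand behind these values. In marker-restricted microglia 57 of 3351 thinned cells with Ncr1-cre and poly(I:C) and 62 of 4393 with Gzmb-cko held 5 or more members. Cells with at least 4 other members held 82.1 and 76.0% of the Ifit3 UMIs there. The intervals below leave out variation between cells. Ifit2 stood at 10.37, 15.88 and 7.743 CPM in the gate, lowest in the Gzmb-cko library, with a Gzmb-cko to Ncr1-cre ratio of 0.4876 (0.4178 to 0.5683). The ratio was 0.4294 in single-gate and 0.5556 (0.4397 to 0.7009) in marker-restricted microglia. Ifit3 stood at 21.66, 27.11 and 17.68 CPM, a ratio of 0.652 (0.5853 to 0.7262), with 0.5339 and 0.6557 (0.553 to 0.7773) in the narrower sets. Ifit1 did not pass the fold in the gate, at 11.66, 11.72 and 8.132 CPM (0.6941, 0.59 to 0.8164), and was at 0.6883 (0.5336 to 0.8877) in marker-restricted microglia. Herc6 was at 0.679 in the gate, 0.644 in single-gate and 0.6894 (0.6039 to 0.7871) in marker-restricted cells. Oasl1, a synthase-like protein that restrains Irf7, stood at 5.523, 6.174 and 3.885 CPM, a ratio of 0.6293 (0.4989 to 0.7928), and at 0.6506 with an interval of 0.4019 to 1.051 in marker-restricted cells.

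For the other members past the fold the ratio was nearer to 1, or above it, in marker-restricted microglia. Slfn1 stood at 27.16, 27.49 and 17.07 CPM, lowest in the Gzmb-cko library, with a ratio of 0.621 (0.5571 to 0.692), and at 0.9759 (0.4521 to 2.166) in the marker-restricted set, where it had 18 UMIs with Gzmb-cko and 13 with Ncr1-cre. Gbp2, a guanylate-binding protein gene, stood at 8.807, 11.90 and 7.466 CPM (0.6273, 0.5314 to 0.74), and the ratio was 0.7659 there. Slfn4 stood at 3.375, 3.942 and 2.581 CPM (0.6547, 0.4902 to 0.8732) and Cmpk2 at 4.296, 4.389 and 2.914 CPM (0.664, 0.5055 to 0.8711). Both had ratios above 1 in the marker-restricted set, on at most 28 UMIs a library. Isg15, at 0.7649 in the gate and 0.648 in single-gate microglia, was at 1.011 (0.8689 to 1.178) in the marker-restricted set.

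Some members went the opposite way. Ifi27l2a was at 1.21 (1.158 to 1.264) in the gate and 1.516 (1.392 to 1.652) in marker-restricted microglia. Rtp4 stood at 25.35, 25.33 and 31.28 CPM, highest in the Gzmb-cko library, with a ratio of 1.235 (1.122 to 1.36) in the gate and 1.681 (1.461 to 1.938) in the marker-restricted set. Xaf1 stood at 19.55, 21.72 and 25.89 CPM, with 1.192 (1.074 to 1.324) and 1.569 (1.363 to 1.809). Rsad2 was below 1 in the gate (0.7917, 0.6938 to 0.9034) and at 1.518 (1.154 to 2.012) in the marker-restricted set. Trim30a was nearly equal, at 76.92 and 78.01 CPM (1.014, 0.958 to 1.074). Of the pathway genes Irf7 was at 30.28 CPM with Ncr1-cre and 20.98 CPM with Gzmb-cko (0.693, 0.6269 to 0.7661), and Cxcl10, a chemokine gene of the same response, at 51.74 and 19.23 CPM (0.3718, 0.3389 to 0.4075). Of the 43 pathway genes tested in the gate 12 were higher with Gzmb-cko (27.9%), where 37.8% of all genes were. At least 1.5-fold lower were 2 of them, where 9.35% of all genes were. Their ratios in marker-restricted microglia are not given here.

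**Figure D5:**
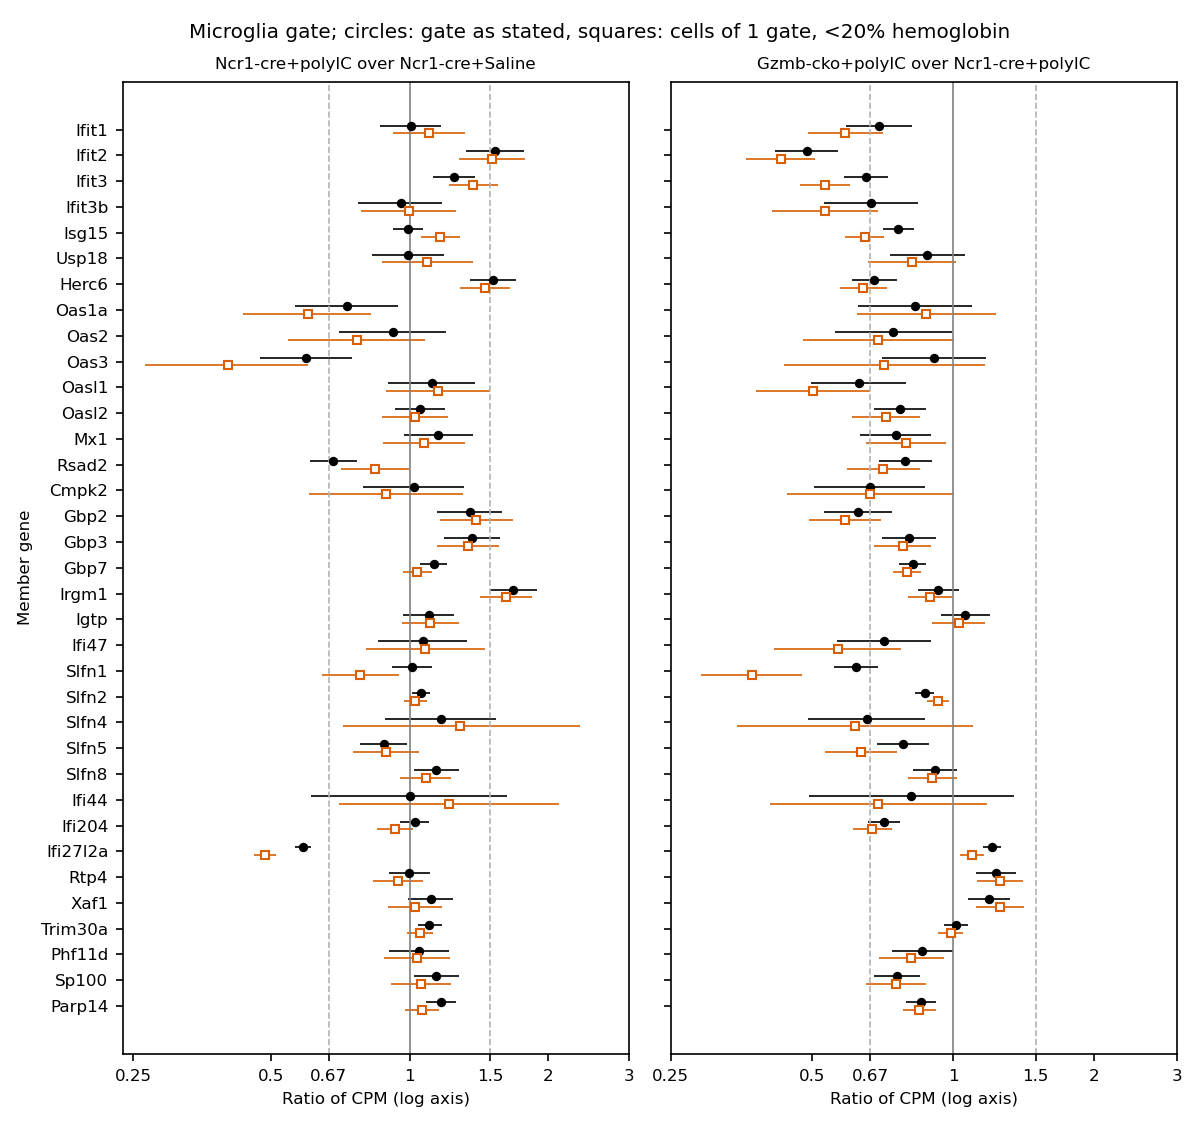
Ratio of CPM (log axis) for each member in microglia, poly(I:C) over saline on one side and Gzmb-cko over Ncr1-cre with poly(I:C) on the other, with 95% counting intervals; black circles are the gate as stated, orange squares single-gate cells, and dashed lines mark 1.5-fold either way. In the second comparison 30 of 35 members lie below 1 in the stated gate, with Ifit2 lowest at 0.4876, and Rtp4 is highest at 1.235.

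In border macrophages the summed members were at a ratio of 1.057 (1.028 to 1.087) for poly(I:C) over saline and 1.11 (1.084 to 1.138) for Gzmb-cko over Ncr1-cre. For poly(I:C) over saline 7 of 33 tested members were at least 1.5-fold higher, where 13.2% of all genes were, and 3 lower, where 3.06% were. In single-gate cells 8 of 31 were higher, where 12.6% of all genes were, and 1 lower. In the stated gate TMM scaling lowered the log2 ratios by 0.22, to a summed ratio of 0.9073. With it 2 members (Mx1 and Ifit3b) were higher, where 5.87% of all genes were. Lower were 4 (Oas3, Slfn1, Rsad2 and Ifi27l2a), where 6.31% were. Mx1, a dynamin-like antiviral GTPase, stood at 6.418, 11.81 and 10.25 CPM, a ratio of 1.84 (1.286 to 2.637). Gbp7 stood at 69.13, 109.8 and 87.26 CPM (1.589, 1.423 to 1.773) and Irgm1 at 15.26, 24.46 and 32.24 CPM (1.603, 1.265 to 2.032). Ifit3b was at 1.81 (1.084 to 3.035) and Ifit2 at 1.545 (1.119 to 2.13). For Mx1, Gbp7 and Irgm1 both poly(I:C) libraries were above saline. Slfn1 was lower, at 24.73, 11.64 and 12.68 CPM (0.4707, 0.3546 to 0.6181), as was Rsad2 at 22.31, 12.15 and 22.14 CPM (0.5445, 0.4108 to 0.7145) and Oas3 at 4.840, 1.856 and 3.962 CPM (0.3834, 0.1791 to 0.7514). In single-gate cells Slfn1 alone passed the fold, and Rsad2 stood at 12.92, 10.84 and 20.29 CPM. For Gzmb-cko over Ncr1-cre 4 of 33 members were higher, where 2.31% of all genes were, and none lower, where 7.62% were. These were Oas3 (2.135), Rsad2 (1.823), the synthase-like Oasl2 at 28.30, 25.98 and 40.91 CPM (1.575, 1.324 to 1.883), and Usp18 (1.524), the protease that removes Isg15. In single-gate border macrophages 2 of these 4, Oas3 and Rsad2, passed.

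Monocytes had more members past the fold for poly(I:C) over saline, with a summed ratio of 1.392 (1.369 to 1.416). Of 34 tested members 14 were at least 1.5-fold higher, where 14.4% of all genes were, and none lower, where 6.04% were. The saline monocyte gate also held the lowest sum of its own 8 monocyte markers (16010, 28120 and 24850 CPM) and the highest of microglia markers (3119, 1705 and 2753 CPM), and their part in these ratios was not tested. In single-gate monocytes, where the own sums were 21670, 31510 and 29050 CPM, 6 members were higher, where 10.5% of all genes were, and 1 (Rsad2) lower. The summed levels of single-gate monocytes were closer than those of the stated gate, at 6846 CPM with saline and 7782 CPM with poly(I:C). With TMM scaling, a log2 shift of -0.18, the summed ratio of the stated gate was 1.227. With it 5 members (Irgm1, Slfn4, Sp100, Herc6 and Xaf1) were at least 1.5-fold higher, where 5.98% of all genes were. Above 1 were 32 of 34 members with and without it, where 70.1% of all genes were without it. Irgm1 led again, at 36.05, 80.22 and 82.18 CPM, a ratio of 2.225 (1.851 to 2.681), and 2.257 in single-gate cells. Slfn4 stood at 23.78, 51.07 and 64.80 CPM (2.148, 1.707 to 2.71) and the nuclear body gene Sp100 at 150.5, 309.3 and 241.5 CPM (2.054, 1.876 to 2.251). Xaf1 was at 72.49, 124.8 and 134.3 CPM (1.722, 1.502 to 1.976) and Herc6 at 1.827 (1.454 to 2.301). In Irgm1, Slfn4, Sp100 and Xaf1 the saline library was lowest. For Gzmb-cko over Ncr1-cre 1 of 34 members, Gbp2, was at least 1.5-fold higher, where 4.58% of all genes were, and none lower, where 5.02% were. Gbp2 stood at 25.51, 24.25 and 39.77 CPM, a ratio of 1.64 (1.26 to 2.145). The summed ratio was 1.07 (1.052 to 1.088).

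In neutrophils the summed members were 1.81-fold higher (1.752 to 1.87) with poly(I:C) than with saline, and 2.288-fold in single-gate cells. Of 31 tested members 17 were at least 1.5-fold higher, where 17.2% of all genes were, and 1 (Oas1a) lower, where 12.8% were. In single-gate neutrophils 14 of 17 tested were higher, where 19.3% of all genes were. Of the 5 Schlafen genes 4 passed the fold, with Slfn1 at 138.8, 386.8 and 242.1 CPM (2.788, 2.535 to 3.068), Slfn2 at 339.3, 769.4 and 474.6 CPM (2.268, 2.129 to 2.416) and Slfn4 at 32.81, 100.7 and 67.72 CPM (3.07, 2.529 to 3.738). These 3 were highest in the poly(I:C) library and lowest with saline. Slfn5 was at a ratio of 1.731 and Slfn8 at 1.246 (0.8713 to 1.774). Ifit1, with the largest ratio of the members tested, stood at 6.113, 21.26 and 21.33 CPM (3.477, 2.223 to 5.552) and Sp100 at 45.44, 116.1 and 100.8 CPM (2.555, 2.155 to 3.034). For these the saline library was lowest and both poly(I:C) libraries were close together. Markers of mature neutrophils moved with these values: Retnlg was at 2423, 8244 and 5145 CPM and Cxcr2 at 132.7, 406.5 and 202.1 CPM, while the granule gene Ngp of immature cells was at 8919, 9245 and 9118 CPM. The part of neutrophil maturity in the member ratios was not tested. The lowest total of a barcode was 3133 UMIs with saline and 500 in both others. Neutrophil-gate cells had a median of 7503, 4241.5 and 6556.5 UMIs. Of them 44.8, 24.7 and 45.3% also met another gate, and hemoglobin genes made up 14.5, 5.31 and 1.89% of their UMIs. The part of these differences in the member ratios was not tested either. For Gzmb-cko over Ncr1-cre 2 of 25 members were higher, Ifi27l2a at 283.5, 291.4 and 518.3 CPM (1.779, 1.623 to 1.95) and Rtp4 (1.551), where 20.6% of all genes were, and 3 lower (Slfn2, Slfn1 and Cmpk2, at 0.6168, 0.6258 and 0.6522), where 6.53% were. In single-gate neutrophils none of 17 was higher, where 15.2% of all genes were, and the same 3 were lower, where 10.3% were. Of the 25 members tested in the stated gate 15 were higher by any amount (60.0%) and 10 lower, near the 63.1% higher of all 6920 genes. With TMM scaling, a log2 shift of -0.24, 8 members were higher and 17 lower.

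Choroid plexus cells had few member UMIs, and their values are given as levels only. Ifi27l2a stood at 83.04, 14.99 and 52.87 CPM, Isg15 at 27.61, 8.488 and 11.02 CPM and Slfn2 at 40.63, 21.85 and 24.97 CPM. These members of the myeloid gates were highest with saline, and the saline choroid gate also had the highest share of cells in another gate, at 33.4, 12.5 and 14.3%. Rtp4 was instead highest in the poly(I:C) library, at 26.50, 44.43 and 32.62 CPM, as was Ifit1 at 11.93, 18.96 and 4.049 CPM. The summed level in single-gate choroid cells was 340.1, 235.5 and 195.6 CPM. Without Scrublet doublets the stated gate of the Gzmb-cko library was at 128.3 CPM, where it was 271.7 CPM with them.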

How the data were processed

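Droplet libraries of CD11b+ cells were analysed from 3 groups with 1 library each. Files as deposited by the authors are unnormalised UMI counts for each gene in each barcode. Cell Ranger 5.0.0 wrote them per the file headers; per the submitters' processing notes the tools were STAR and Cell Ranger 3.0.1 with build mm10. Cell Ranger counts reads that map to 1 gene, so near-identical genes lose counts. How barcodes were called cells is not stated. Depth was 89295907, 85442198 and 105574073 UMIs.

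Cells with at least 500 genes and at most 10% mitochondrial UMIs were gated as the rule states. Doublets were kept. Scrublet, run through scanpy 1.11.5, marked 387, 281 and 626 cells (3.186, 2.612 and 4.655%), and leaving them out was an alternative. The expected rates given to it were 11.06, 11.91 and 12.24%, so the cells left need not be free of doublets. UMIs were summed per gate and library and given per 1e6 UMIs (CPM). A member counted as tested had at least 50 UMIs over both libraries, and one past the fold had a ratio of at least 1.5 either way. All past the fold in microglia are named, with the 5 leading members of each gate and at least 1 per role group. In other gates up to 5 per direction were named by size. For shares each cell was thinned to 2000 UMIs. Alternatives changed scaling (TMM of edgeR 4.0.16, median of ratios), cell filters, gates, thinning and cuts. Scripts ran in Python 3.11.15 (numpy 2.4.6, scipy 1.17.1, pandas 2.3.3) and R 4.3.3, and were tested on simulated data. Positions came from GENCODE M21 (27722 of 27998 gene IDs, 99.0%, matched) and promoters from RefSeq. The members, lists and gates were chosen with earlier results of these data known. A gene of the pathway list is counted with the list but not reported here by name.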

Additional observations from a re-analysis of the deposited data

Results flagged for a closer look

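For 3 members the ratio between libraries went past 1.5-fold in opposite directions in different gates. With 1 library per group the difference between gates was not tested. Oas3, poly(I:C) over saline, was at 1.8 (1.375 to 2.358) in neutrophils, 0.5956 (0.4717 to 0.7484) in microglia and 0.3834 (0.1791 to 0.7514) in border macrophages, and in single-gate cells at 2.362, 0.4031 and 0.6191. Slfn1 in the same comparison was at 2.788 (2.535 to 3.068) in neutrophils, 1.543 (1.447 to 1.646) in monocytes and 0.4707 (0.3546 to 0.6181) in border macrophages, and in single-gate cells at 3.837, 1.256 and 0.5354. Gbp2, Gzmb-cko over Ncr1-cre with poly(I:C), was at 1.64 (1.26 to 2.145) in monocytes and 0.6273 (0.5314 to 0.74) in microglia, and at 1.964 and 0.5874 in single-gate cells.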

How the results depend on the processing

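No paired analysis was possible because there was 1 library per group and the labels carry no replicate numbers, and no replicate could be left out. In microglia the summed ratio of poly(I:C) over saline (0.9793) was 0.8619 with TMM, 0.8589 with median of ratios, 0.8982 without mitochondrial, ribosomal and hemoglobin genes, 1.049 with the stricter cell filter (at least 1000 genes, at most 5% mitochondrial), 1.0 with at least 3000 UMIs, 0.9139 with at least 3 UMIs of P2ry12, 0.957 in single-gate and 0.9434 in marker-restricted cells, 0.926 as a mean of per-cell CPM, 0.844 without cells of 5 or more members and 1.09 without Ifi27l2a. Its direction therefore depended on the setting. Gzmb-cko over Ncr1-cre (0.8852) was 0.9523 with TMM, 0.9503 with median of ratios, 0.9128 with the looser cell filter (at least 200 genes, at most 20% mitochondrial), 0.8528 with the stricter one, 0.8669 in cells of 1 gate, 0.9358 with at least 3 UMIs of P2ry12, 0.8435 in single-gate cells, 0.924 as a mean of per-cell CPM and 0.8361 without Ifi27l2a, all below 1. It was above 1 in marker-restricted cells (1.019) and without cells of 5 or more members (1.093). That last alternative removes cells by the member counts being compared, and more of them from the Ncr1-cre library, so it moves a ratio up by its construction and supports nothing. The marker restriction also took out more cells of 5 or more members from the Ncr1-cre library, so the same limit holds for it in part. Members past the fold for poly(I:C) over saline (3 higher, 2 lower) were 0 and 0 at a fold of 2, 0 and 4 with TMM, and 1 higher in marker-restricted cells. For Gzmb-cko over Ncr1-cre (0 higher, 7 lower) 1 was lower at a fold of 2 and 1 with TMM, 12 were lower in single-gate cells, and 4 were higher in marker-restricted cells. Without cells of 5 or more members Ifit2 was at 1.087 and Ifit3 at 1.013, and in marker-restricted cells Cmpk2 was at 1.233 and Slfn4 at 1.128, each turned from below 1. The cause was not tested for any of these.

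The share of microglia with 5 or more members was 2.935, 2.879 and 1.974% when thinned to 1000 UMIs, 8.511, 7.278 and 6.785% at 3000 UMIs, 3.984, 3.667 and 2.511% in single-gate and 1.471, 1.701 and 1.411% in marker-restricted cells. With 3 or more members it was 13.68, 11.56 and 11.38%, and with 8 or more 2.843, 2.995 and 1.931%. A member UMI was seen in 39.55, 36.82 and 38.72% of microglia at 1000 UMIs and in 68.32, 66.57 and 69.69% at 3000, so that depth limits every share. Summed levels in cells of 1 gate were 774.6, 759.1 and 658.0 CPM in microglia, 6217, 7584 and 8275 in monocytes, 947.5, 2254 and 1892 in neutrophils, 331.4, 233.0 and 194.5 in choroid cells, and 1271 and 1516 in the saline and Gzmb-cko border macrophages. Without Scrublet doublets they were 924.7, 898.2 and 790.7 CPM in microglia, 5310, 7333 and 8492 in monocytes, 413.8, 258.5 and 128.3 in choroid cells, 1450 and 2749 in saline and poly(I:C) neutrophils, and 1579 in Gzmb-cko border macrophages. In single-gate cells they were 826.3, 790.8 and 667.0 CPM in microglia, 1348, 1490 and 1526 in border macrophages, 6846, 7782 and 8492 in monocytes, 1040, 2379 and 1917 in neutrophils and 340.1, 235.5 and 195.6 in choroid cells. Of the other values for single members past the fold, 87 stayed within the counting interval and 29 moved beyond it without changing direction. Of the shares of cells with a member UMI in the other gates, 14 stayed within it and 22 moved.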

Other observations

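In hemoglobin-rich cells outside the gates Rsad2 and Isg15 led the members in both poly(I:C) libraries, while Ifi27l2a led with saline, with 20.7% of member UMIs. Slfn2, Rsad2 and Isg15 were close together with saline, at 10.4, 10.3 and 9.72%. Ifi27l2a held 9.56 and 8.99% in the poly(I:C) and Gzmb-cko libraries. The level of neither Rsad2 nor Isg15 was higher in the poly(I:C) than in the saline library. Rsad2 stood at 60.85 (54.24 to 68.03), 59.23 (49.92 to 69.78) and 94.37 (78.11 to 113.0) CPM and was detected in 24.90, 22.86 and 32.95% of these 482, 175 and 88 cells before thinning. Isg15 stood at 57.29 (50.88 to 64.28), 48.05 (39.70 to 57.63) and 102.4 (85.40 to 121.7) CPM, with up to 49, 62 and 56 UMIs in 1 cell. For both genes the Gzmb-cko library was highest. Rsad2 was above its level in the microglia gate, at 24.15, 16.48 and 13.04 CPM, in each library. Of the 116 Isg15 UMIs of the poly(I:C) library 62 lay in 1 cell, and its level there was not separated from the 47.42 CPM of the microglia gate.

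The interferon genes checked, Ifnb1, Ifng, Ifna4, Ifnl2 and Ifnl3, were nearly absent. Over all barcodes Ifnb1, the interferon beta gene, had 6, 27 and 44 UMIs in 5, 3 and 6 barcodes, with up to 2, 20 and 20 UMIs in 1 barcode. Ifng had 2, 2 and 0 UMIs, and Ifna4, Ifnl2 and Ifnl3 had 0 UMIs in each library.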
